A study of Mus musculus with 9 samples.

Results

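ZEB1 occupancy late and early in eribulin treatment, 72 h against 24 h, was compared at every consensus peak of the study. The comparison used the count columns of 4 of the 9 libraries, 2 from PB3 cells after 72 h in 300 nM eribulin and 2 from PB3 cells after 24 h in the same dose. It covers all 23623 consensus peaks, of which 21192 (89.7%) had enough counts to be tested and 2431 did not. No measured value entered the choice of libraries or peaks. The other libraries were 2 after 48 h of eribulin, 2 from untreated PB3 cells and 1 made with IgG in place of the ZEB1 antibody. PB3 is a mouse breast cancer line whose labels give it as negative for oestrogen receptor, progesterone receptor and Her2. The labels name the treated cells PB3_ERI and the untreated ones PB3-Parental, so the cells at 72 and 24 h share line, drug and dose and differ in time. The untreated and 48 h libraries helped to estimate the spread between replicates and are otherwise used here only to place the change in time.

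The transcription factor ZEB1 has zinc fingers that bind E-box sequences beginning with CAGGT, represses epithelial genes such as that of E-cadherin through corepressors of the CtBP family, and can activate genes together with YAP and AP-1. It is known as a driver of the epithelial-mesenchymal transition in breast cancer. Eribulin is a chemotherapy drug that blocks the growth of microtubules. In CUT&RUN an antibody tethers a nuclease to its target on chromatin, and the DNA cut free beside it is sequenced, so a count reports signal at a site and not expression of the gene nearby. For that reason the labelled cell type could not be checked against expression of marker genes.

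The libraries summed to 441521 and 326944 counts in consensus peaks at 72 h, and to 602187 and 747259 counts at 24 h. The highest and lowest of the TMM scaling factors over the 8 ZEB1 libraries were 1.01 and 0.994. Libraries of one group differed from each other by no more than counting error, with a chi-square per degree of freedom of 0.965 at 72 h and 0.953 at 24 h, where 1 is the value for random draws from one pool. The 4 pairs formed by a 72 h and a 24 h library gave 1.67 to 1.76. The labels do not say that the replicates are separate cultures, and 2 libraries this close may be one sample sequenced or split in parallel. They were kept as 2 samples each, and the p-values then measure only the spread between these libraries. When the replicates of the untreated, 24 h and 72 h groups were added up, leaving 1 sample a group, 644 peaks were called in place of the 999 given below. That fit has 1 residual degree of freedom, from the 48 h pair alone, and assumes that the lone samples vary like that pair, so it does not answer whether the replicates are separate. The scaling used here rests on no added control DNA, so a value is relative to the other peaks of its library, and a gain at some peaks cannot be told apart from a loss at the rest.

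The following promoter sequences are examples of gene starts under called peaks. Most rises lay at gene boundaries and few falls did, so the falling examples are not typical of the falls. The first 3 lie under peaks that rose between 24 and 72 h, and the last 3 lie under peaks that fell and overlap exactly 1 coding promoter window. Each window runs from 250 bases before to 50 bases after the gene start (RefSeq, GRCm38.p6) and is written 5′ to 3′ on the gene's strand, with capitals marking CAGGTG or CAGGTA in either orientation, the sequences searched for here as ZEB1 motifs.
Zdhhc5, chr2:84715115-84715414, minus strand: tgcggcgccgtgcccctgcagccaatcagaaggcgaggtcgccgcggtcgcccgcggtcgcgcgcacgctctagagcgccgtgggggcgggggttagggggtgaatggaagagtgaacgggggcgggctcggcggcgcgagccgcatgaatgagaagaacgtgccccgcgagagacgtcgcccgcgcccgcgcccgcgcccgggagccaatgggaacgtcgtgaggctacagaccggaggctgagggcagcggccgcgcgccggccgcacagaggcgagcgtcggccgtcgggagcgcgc
Myo5a, chr9:75070956-75071255, plus strand: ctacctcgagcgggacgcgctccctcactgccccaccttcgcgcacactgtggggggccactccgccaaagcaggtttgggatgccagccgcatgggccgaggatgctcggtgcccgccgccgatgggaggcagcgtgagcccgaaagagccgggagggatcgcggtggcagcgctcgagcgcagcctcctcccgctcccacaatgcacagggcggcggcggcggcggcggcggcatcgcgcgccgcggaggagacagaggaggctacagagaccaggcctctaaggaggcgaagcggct
Phf20, chr2:156196397-156196696, plus strand: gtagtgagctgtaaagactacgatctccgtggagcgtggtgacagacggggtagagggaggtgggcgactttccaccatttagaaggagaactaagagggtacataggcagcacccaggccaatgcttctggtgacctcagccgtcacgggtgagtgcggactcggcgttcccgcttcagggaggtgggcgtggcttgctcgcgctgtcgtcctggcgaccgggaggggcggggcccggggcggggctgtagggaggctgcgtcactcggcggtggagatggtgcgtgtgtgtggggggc
Sipa1l3, chr7:29505411-29505710, minus strand: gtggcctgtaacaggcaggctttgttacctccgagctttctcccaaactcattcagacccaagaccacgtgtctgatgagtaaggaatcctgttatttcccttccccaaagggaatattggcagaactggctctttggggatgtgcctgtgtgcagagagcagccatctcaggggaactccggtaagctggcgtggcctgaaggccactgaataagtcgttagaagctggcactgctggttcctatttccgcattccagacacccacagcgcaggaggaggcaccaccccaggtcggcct
Ercc1, chr7:19344821-19345120, plus strand: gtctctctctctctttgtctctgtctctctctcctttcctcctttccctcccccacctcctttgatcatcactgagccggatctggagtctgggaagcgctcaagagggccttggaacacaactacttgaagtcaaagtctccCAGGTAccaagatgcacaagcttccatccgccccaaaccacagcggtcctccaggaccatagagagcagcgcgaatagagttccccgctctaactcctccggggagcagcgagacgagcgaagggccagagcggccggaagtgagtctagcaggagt
Krt8, chr15:102004293-102004592, minus strand: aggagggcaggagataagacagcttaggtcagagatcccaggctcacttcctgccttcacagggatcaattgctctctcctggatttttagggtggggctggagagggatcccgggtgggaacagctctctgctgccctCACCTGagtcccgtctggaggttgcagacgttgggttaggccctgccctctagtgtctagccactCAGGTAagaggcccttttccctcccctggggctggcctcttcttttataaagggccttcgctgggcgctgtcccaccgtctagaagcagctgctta
The windows of the 3 rising peaks held 75.3, 72 and 65% G and C and no ZEB1 motif. Those of the 3 falling peaks held 55, 57 and 58% G and C, with 0 motifs in the Sipa1l3 window, 1 in the Ercc1 window and 2 in the Krt8 window. The peak over the start of Sipa1l3 held 48.5 and 50.2 CPM (counts scaled to the library total) at 72 h, against 116 and 102 CPM at 24 h (log2 fold change -1.14, SE 0.246). The peak over the start of Ercc1, a DNA repair gene, held 309.7 and 332 CPM at 72 h, against 477 and 423 CPM at 24 h (-0.49, SE 0.129). These windows have the smallest p among called peaks of at least median CPM over exactly 1 window, for the rises among the peaks named below, and show single cases, while the shares over all windows are given with the promoter results.

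ZEB1 signal moved in both directions between 24 and 72 h, by similar numbers of peaks, and the rises and falls lay at different kinds of site. Of the 21192 tested peaks 999 (4.71%) were called by edgeR's quasi-likelihood test, at 0.05 after Benjamini-Hochberg adjustment, 492 higher (2.32%) and 507 lower (2.39%) at 72 h. The median change was 1.05 on the log2 scale among the rises and -1.12 among the falls, and 269 rises and 316 falls passed a doubling or halving, a log2 size of 1. The median log2 change over all tested peaks was -0.01, with quartiles of -0.38 and 0.36. The scaling sets the centre of the changes near 0. This median and the similar counts of rises and falls therefore cannot show whether ZEB1 signal as a whole moved. In all 999 called peaks the libraries at 72 h lay apart from those at 24 h, as they did in 52.9% of all tested peaks. An unadjusted p below 0.05 was given to 4519 peaks.

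The call count depended on the test and on depth. DESeq2's Wald test called 5 peaks (0.0236%), all of them also called by edgeR, gave no adjusted p for 14791 peaks and put 1330 below an unadjusted p of 0.05. The spread between replicates beyond counting error, as a common coefficient of variation, was 0.0341 in edgeR. The square root of DESeq2's median dispersion was 0.259. The part of these estimates in the call counts was not tested. Without 72 h replicate 1 or 2 edgeR called 280 or 208 peaks, and without 24 h replicate 1 or 2 it called 368 or 394.

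The 5 peaks that both tests called were 2 rises and 3 falls. The peak at the start of Zdhhc5, a gene for an enzyme that attaches palmitate to proteins, held 215 and 194 CPM at 72 h, against 69.9 and 99.6 CPM at 24 h (chr2:84714878-84715917, log2 fold change 1.25, SE 0.183, edgeR adjusted p = 4.55e-06, DESeq2 adjusted p = 0.0242). CPM is a count scaled to the library's total in tested peaks after TMM, the usual unit for comparing libraries. The boundary peak of Mex3c, which encodes an RNA-binding ubiquitin ligase, held 143 and 173 CPM at 72 h, against 71.6 and 62.8 CPM at 24 h (chr18:73572004-73572973, 1.22, SE 0.203). Both 72 h libraries were above both 24 h libraries at these peaks, by more than the replicates differed.

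The 3 falls called by both tests lay away from gene boundaries. A peak inside Palld, the gene of the actin-bundling protein palladin, held 143 and 138 CPM at 72 h, against 305 and 289 CPM at 24 h (chr8:61802878-61804195, log2 fold change -1.07, SE 0.160, edgeR adjusted p = 4.55e-06). A peak on chromosome 13 with no gene within 50 kb held 132 and 144 CPM at 72 h, against 324 and 276 CPM at 24 h (chr13:16659274-16660383, -1.12, SE 0.167). The peak 14.7 kb from Mreg, a gene of melanosome and lysosome transport, held 122 and 107 CPM at 72 h, against 247 and 225 CPM at 24 h (chr1:72225923-72228148, -1.02, SE 0.175). Both libraries at 72 h were below both at 24 h in each of these peaks, and edgeR called all 5 also without any 1 of the 4 libraries. The Mreg peak lies within 1 kb of the small nuclear RNA gene Gm25360.

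Rises gathered at gene boundaries and falls away from them. A peak is named a boundary peak here if no more than 1 kb separates its centre from either end of any protein-coding gene. Of the 6027 tested boundary peaks 348 were higher (5.77%) and 16 lower (0.265%) at 72 h, set against 2.32% and 2.39% over all tested peaks, and their median log2 change was 0.32. Of the 7615 peaks inside genes 91 were higher and 215 lower (median -0.11), and of the 7548 outside genes 53 were higher and 275 lower (3.64%, median -0.17). Boundary peaks thus made up 70.7% of the rises and 3.16% of the falls.

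The shift was shared by boundary peaks that no test called. Their median was 0.29, and 76.2% of tested boundary peaks had a positive log2 change. It was present in every quintile of signal strength, with boundary medians of 0.42, 0.34, 0.35, 0.33 and 0.26 from the weakest to the strongest quintile, while the medians outside genes were -0.24, -0.15, -0.19, -0.17 and -0.14. With distance the balance turned. Within 0.25 kb of a boundary 271 of 4573 tested peaks rose (5.93%) and 8 fell (0.175%). Between 1 and 5 kb 60 of 2537 rose (2.365%) and 43 fell (1.69%), beside 2.32% and 2.39% of all tested peaks. Between 20 and 50 kb 18 of 3512 rose (0.513%) and 145 fell (4.13%).

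**Figure D1:**
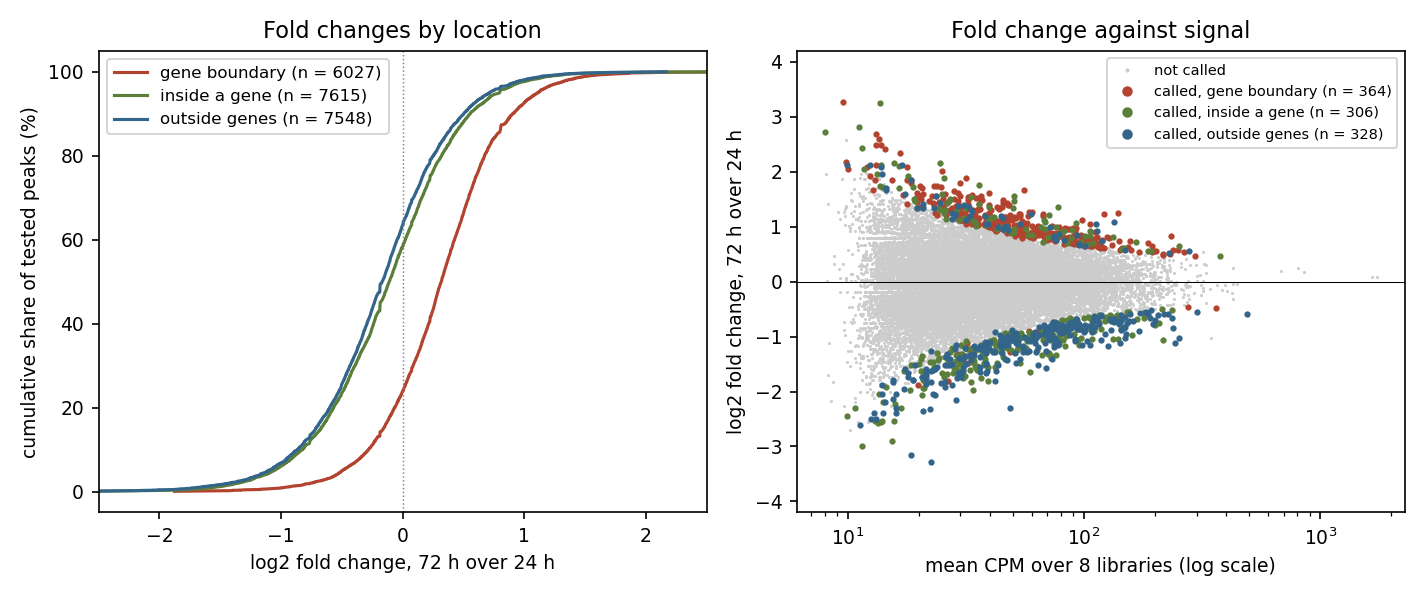
Left, cumulative share of tested peaks (%) against the log2 fold change of 72 h over 24 h, 1 line for each location; the boundary line (n = 6027) lies to the right of the lines for peaks inside (n = 7615) and outside genes (n = 7548), with a median of 0.32 against -0.11 and -0.17. Right, log2 fold change of each tested peak against its mean CPM over 8 libraries on a log axis, with called peaks coloured by location, so that the 348 boundary rises stand above 0 and most falls are peaks away from boundaries.

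Boundary peaks lay mostly at gene starts, and so did the boundary rises. At the start of their gene 271 of 4597 boundary peaks rose (5.90%, beside 5.77% of all tested boundary peaks) and 7 fell, with a median of 0.34. At the end of their gene 4 of 216 rose (1.85%) and 5 fell, with a median of -0.07. Of 1049 boundary peaks whose gene has no promoter window here 61 rose (5.82%) and 4 fell. Of the 165 other boundary peaks 12 rose (7.27%) and none fell. Peaks that overlapped the promoters of 2 or more genes rose in 67 of 986 cases (6.80%) and fell in 1. Among the 62 peaks within 1 kb of a histone gene 2 rose (3.23%). Of 61 similarly close to genes of small nuclear RNAs 3 rose (4.92%) and 7 fell (11.5%). Over all tested peaks 2.32% rose and 2.39% fell.

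The same shift was seen in the summed consensus-peak counts of each library, without regard to which peaks were called as changed. Boundary peaks held 33.7% and 34.7% of a library's counts in consensus peaks at 72 h, against 27.7% and 28.4% at 24 h. The 48 h libraries, with 31.5% and 29.8%, lay between. The untreated libraries held 27.7% and 27.5%. The difference between 72 and 24 h was 6.17 percentage points, larger than the spread of each pair (SD 0.653 and 0.535), and the exact two-sided permutation test gave p = 0.333, the smallest that 2 libraries against 2 allow. Binomial intervals were narrow (95% Wilson, 34.5 to 34.8% for 72 h replicate 2) and cover counting error only. The difference was 5.12 points without the called peaks. Within peaks of the 24 h list it was 5.96 points, and within peaks of the 72 h list 5.75 points. The 72 h libraries had fewer counts than the 24 h libraries, and with all libraries thinned to 326944 counts 95 boundary peaks were higher and 8 lower at 72 h.

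**Figure D2:**
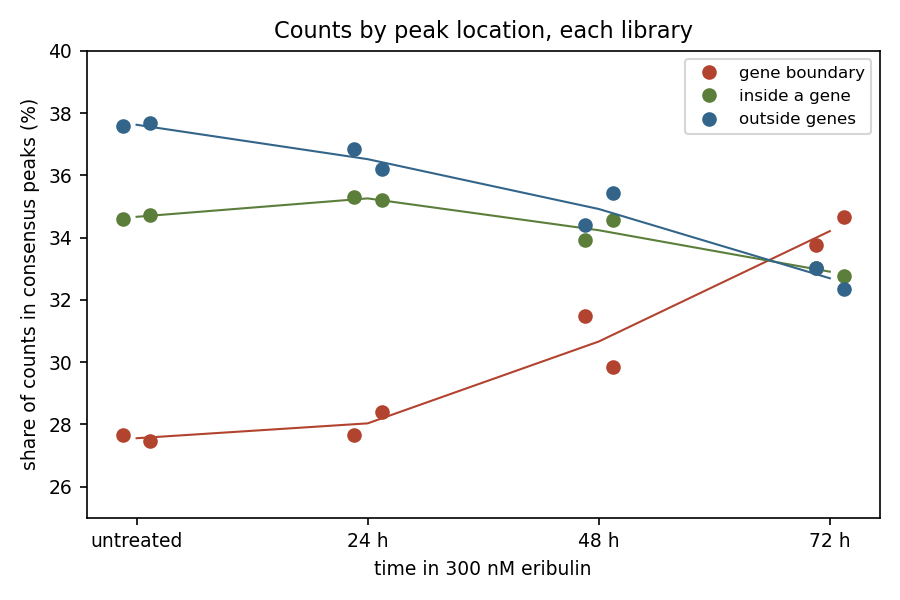
Share of a library's consensus-peak counts (%) that fell in boundary, inside and outside peaks, for untreated cells and after 24, 48 and 72 h in 300 nM eribulin; each point is a library and lines join the means of the 2 libraries. The boundary share was 33.7 and 34.7% at 72 h, above every other library.

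A shift shared by all boundary peaks also sets how many single peaks are called there. When TMM and the library total were taken within each location class, a choice added after the shift was seen, 260 peaks were higher (1.23%) and 287 lower (1.35%). Of the boundary peaks 43 were then higher and 106 lower, and elsewhere 217 were higher and 181 lower. This scaling takes out what a class shares, so its counts are of departures from the class and not of the same peaks with another sign. In each other alternative boundary rises outnumbered boundary falls. Values below are from the common scaling unless location classes are named.

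Promoters rich in G and C gained most. Of the promoter windows under tested peaks, 6142 in all, the poorest quintile in G and C (33.3 to 56.3%) lay under a rising peak in 2.32% of cases and the richest quintile (70.3 to 87%) in 11.2%, with 4.12, 5.85 and 7.29% between them. The median log2 change went up through the quintiles as 0.20, 0.28, 0.33, 0.41 and 0.52. In counts, among 3972 peaks over exactly 1 window, peaks of the richest quintile held 19.5% of the counts in both libraries at 72 h, against 17.3% and 17.5% at 24 h. The untreated libraries held 17.8% each, and the poorest quintile held 19.4% and 19.1% at 72 h, against 21.3% in both libraries at 24 h. The base composition of whole libraries was not measured here, and its part in the gain at promoters was not tested.

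Windows with a ZEB1 motif gained less than windows without one. CAGGTG or CAGGTA, searched on both strands, was found in 28.3% of all 21263 promoter windows, in 22.3% of those under a tested peak, in 10.5% of the 373 under a rising peak and in 6 of the 9 (66.7%) under a falling peak. The median log2 change was 0.23 over windows with the motif and 0.37 over windows without it. This order was the same in every quintile of G and C content, with medians of 0.07 against 0.23 in the poorest quintile and 0.31 against 0.58 in the richest.

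Counted per library, motif-bearing promoter peaks (863 of the 3972) held 21.0% and 20.8% of promoter-peak counts at 72 h, against 22.9% and 23.1% at 24 h. Both 72 h libraries were below both 24 h libraries, with a mean difference of -2.11 percentage points (exact two-sided permutation p = 0.333, the smallest possible). The untreated libraries, with 20.1% each, were lower still, and the 48 h libraries held 21.0% and 21.6%. As a share of the 24 h level, since motifs differ in how common they are, the change was -9.17% for the ZEB1 motif and -6.21% for TGANTCA (the AP-1 motif). It was -2.10% for CATTCC (the TEAD motif), -1.12% for CAGCTG and 5.87% for CACGTG. A match in a window is a description of its letters, and these motifs can share windows.

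**Figure D3:**
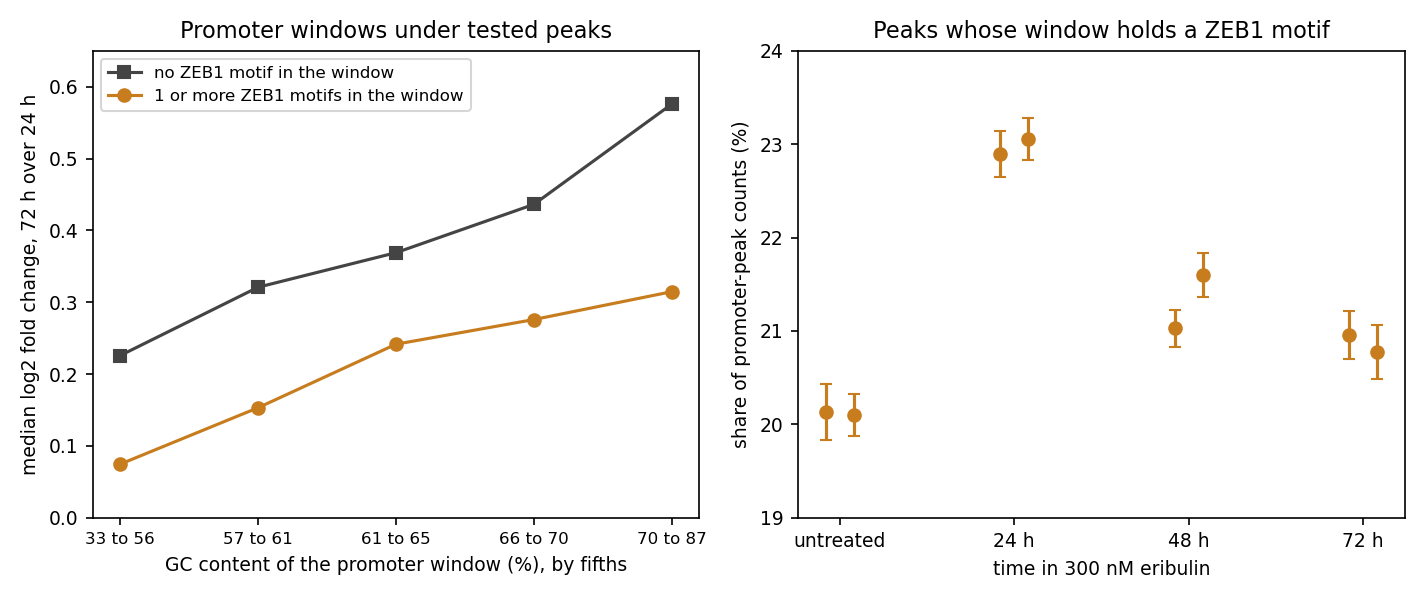
Left, median log2 fold change of 72 h over 24 h for promoter windows under tested peaks, by quintiles of G and C content (%), for windows with and without CAGGTG or CAGGTA; both lines climb, and the line with the motif stays below (0.31 against 0.58 in the richest quintile). Right, share of promoter-peak counts (%) in peaks whose window holds a ZEB1 motif, each library a point with its 95% Wilson interval, which was 21.0 and 20.8% at 72 h, against 22.9 and 23.1% at 24 h.

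The 14 largest rises among well-covered peaks with an assigned gene, which is the closest coding or microRNA gene by either end and no more than 50 kb away, were mostly at gene boundaries. They lay between 1.40 and 1.77 on the log2 scale (SE 0.278 to 0.363, edgeR adjusted p from 0.000218 to 0.00799), 10 at boundaries and 4 inside genes. The peak in the first part of Myo5a, the gene of an actin motor that carries organelles, held 50.8 and 65.9 CPM at 72 h, against 17.1 and 16.4 CPM at 24 h (chr9:75071159-75071719, log2 fold change 1.77). The boundary peak of Klf16, a zinc-finger transcription factor gene, held 71.7 and 84.7 CPM at 72 h, against 25.6 and 23.2 CPM at 24 h (chr10:80577290-80578088, 1.66). The boundary peak of C1galt1, which encodes the enzyme of core O-glycan synthesis, held 55.5 and 84.7 CPM at 72 h, against 27.3 and 17.7 CPM at 24 h (1.62). In these 3 peaks the libraries of the 2 times did not overlap, and the replicates of C1galt1 were the furthest apart.

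Further rises are given by what the nearest gene encodes. The peak inside Chd5, a chromatin remodeller gene, held 80.9 and 100.4 CPM at 72 h, against 34.1 and 27.3 CPM at 24 h (1.55). That at the start of Setd2, a histone methyltransferase gene, held 69.3 and 56.5 CPM at 72 h, against 17.1 and 27.3 CPM at 24 h (1.48). That of Rb1, the gene of the retinoblastoma protein that holds back the cell cycle, held 80.9 and 75.3 CPM at 72 h, against 35.8 and 24.6 CPM at 24 h (1.40). Phf20, a histone reader gene, had 76.3 and 84.7 CPM at 72 h, against 23.9 and 34.1 CPM at 24 h (1.43), and Zbtb7a, a zinc-finger repressor gene, had 78.6 and 72.1 CPM at 72 h, against 23.9 and 30.0 CPM at 24 h (1.47).

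The other rises were of mixed function. Genes of the mitochondrion were Polrmt, its RNA polymerase (1.52), and Ndufa6, a subunit of respiratory complex I (1.44). Genes of signalling were Rgs12, which shortens G-protein signals (1.55), and Sh2b2, an adaptor of receptor kinases (1.40). The Anxa9 peak (1.48) also overlaps the promoter of the ceramide synthase gene Cers2, and the H2-DMa peak (1.40) lies inside Brd2, so the gene assigned is the nearest and not shown to be the target. Of the 14 rises, Myo5a, Klf16, Chd5, Phf20 and Zbtb7a stayed called without any 1 of the 4 libraries, DESeq2 called none and gave no adjusted p for 13, and 13 passed with location classes scaled apart, H2-DMa being the exception.

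**Figure D4:**
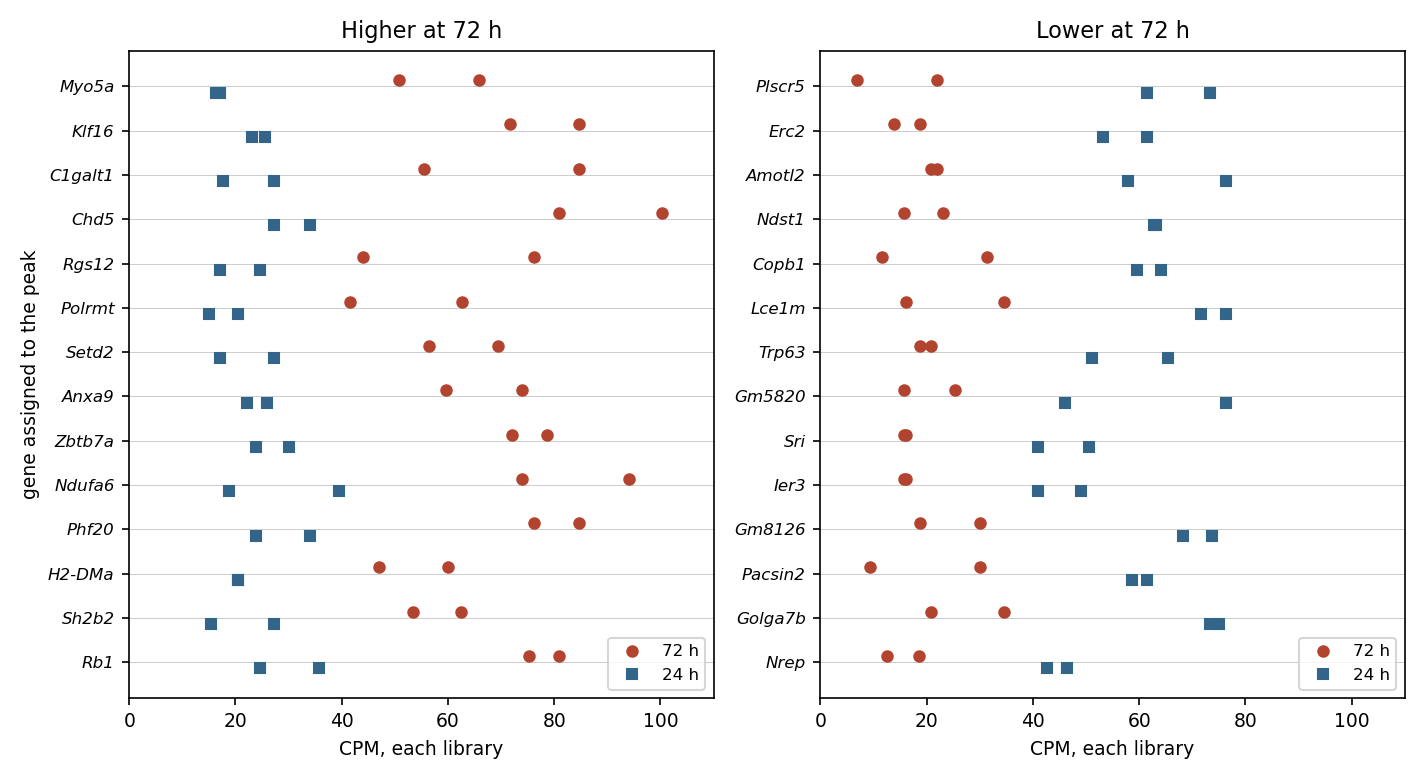
CPM of each library at 72 h (red circles) and at 24 h (blue squares) for the 14 largest rises (left) and the 14 largest falls (right) among called peaks with an assigned gene. The 2 circles and the 2 squares of a gene do not overlap, as the choice of peaks required, and the falls end at 72 h values between 6.93 and 34.5 CPM.

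None of the 14 largest falls lay at a gene boundary. They lay between -2.31 and -1.47 on the log2 scale (SE 0.318 to 0.398, edgeR adjusted p from 7.36e-05 to 0.0176), 10 outside genes and 4 inside. The peak 16.7 kb from Plscr5, of the phospholipid scramblase family, held 6.93 and 22.0 CPM at 72 h, against 73.3 and 61.4 CPM at 24 h (chr9:92228992-92229511, -2.31). The peak near Erc2, a gene of the synaptic active zone, held 13.9 and 18.8 CPM at 72 h, against 61.4 and 53.2 CPM at 24 h (-1.82). The peak 30.3 kb from Amotl2, which encodes an angiomotin-like partner of YAP, held 20.8 and 22.0 CPM at 72 h, against 58.0 and 76.4 CPM at 24 h (chr9:102763592-102763889, -1.67). All 3 were low in both libraries at 72 h, and the Plscr5 replicates differed most.

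The other falls lay near genes of mixed function. The peak 13.5 kb from Trp63, a transcription factor gene of basal epithelial cells, held 20.8 and 18.8 CPM at 72 h, against 51.2 and 65.5 CPM at 24 h (-1.56). The peak near Lce1m, of the late cornified envelope family, held 16.2 and 34.5 CPM at 72 h, against 71.6 and 76.4 CPM at 24 h (-1.62). The remaining falls were near Ndst1, a heparan sulfate sulfotransferase gene (-1.64), near the coatomer gene Copb1 (-1.63), near the predicted gene Gm5820, inside Arhgap26 and Fgf1 (-1.55), and inside Sri, the sorcin gene (-1.52). Ier3 (-1.5), Gm8126 (-1.49), Pacsin2, a gene of endocytosis (-1.48), Golga7b (-1.47) and Nrep (-1.47) completed the 14. Amotl2 alone stayed called without any 1 of the 4 libraries, and Ier3 and Nrep did not pass with location classes scaled apart (adjusted p = 0.0516 and 0.0541).

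Peaks near epithelial genes, the class that ZEB1 is known to repress, fell where they changed. Of the 50 tested peaks near 20 genes of the epithelial list 6 fell (12%, beside 2.39% of all tested peaks), none rose and 44 did not pass, with a median log2 change of -0.22 beside -0.01 over all tested peaks. Only 22% of the list's peaks were at boundaries. Of all tested peaks inside genes 2.82% fell (median -0.11), and of those outside 3.64% fell (median -0.17). The keratin partners Krt8 and Krt18, filament proteins of simple epithelium, gave 4 of the 6. These 2 genes share 1 locus on chromosome 15, and their peaks given below lie within chr15:102004212-102046304. The Krt8 promoter peak, whose window is printed above, held 87.8 and 91.0 CPM at 72 h, against 139.8 and 143 CPM at 24 h (log2 fold change -0.67, SE 0.200, edgeR adjusted p = 0.0347). A peak 11.5 kb from Krt18 held 122 and 107 CPM at 72 h, against 181 and 199 CPM at 24 h (chr15:102016122-102017301, -0.72, adjusted p = 0.00984). A peak on its other side held 187 and 154 CPM at 72 h, against 257 and 265 CPM at 24 h (chr15:102045091-102046304, -0.60). All these peaks had no overlap between the times, and 3 of the 4 tested Krt18 peaks fell.

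The other epithelial falls were near Epcam and inside Mal2. The peak 26.1 kb from Epcam, an epithelial adhesion molecule gene, held 18.5 and 12.5 CPM at 72 h, against 44.3 and 42.3 CPM at 24 h (-1.42, SE 0.401, edgeR adjusted p = 0.0240). The peak inside Mal2, a gene of apical transport, was low throughout, with 2.31 and 6.27 CPM at 72 h, against 32.4 and 17.7 CPM at 24 h (-2.54). The strongest peak of Cdh1, the E-cadherin gene, held 80.9 and 72.1 CPM at 72 h, against 101 and 112 CPM at 24 h, and did not pass (-0.47, SE 0.220, adjusted p = 0.195). With location classes scaled apart Krt8 (-0.99, adjusted p = 0.00100) and Mal2 passed, while Epcam (0.0683) and the Krt18 peaks did not. Without 1 of the 4 libraries at 72 or 24 h, whichever was left out, the Epcam and Krt8 peaks were not called, with adjusted p up to 0.187 for Epcam and 0.219 for Krt8.

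Peaks near apical-basal polarity genes gave no call, with 19 tested near 13 genes and a median of 0.18. Of these peaks 52.6% were at boundaries, where the median over all tested peaks was 0.32. In the fit that scaled location classes apart 2 boundary peaks passed, both lower, named after their values were seen. The Pard6b peak held 141 and 163 CPM at 72 h, against 182 and 211 CPM at 24 h (-0.72 in that fit, adjusted p = 0.00367), and the Llgl2 peak held 94.8 and 91.0 CPM at 72 h, against 113 and 128 CPM at 24 h (-0.70, 0.0351).

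Of 102 tested peaks near 35 genes of the mesenchymal list 2 rose and 2 fell, 1.96% each way beside 2.32% and 2.39% of all tested peaks, and 98 did not pass. The list's median was -0.08. The boundary peak of Vim, which encodes the filament protein vimentin, held 99.4 and 87.8 CPM at 72 h, against 58.0 and 51.8 CPM at 24 h (chr2:13573568-13574543, log2 fold change 0.79, SE 0.243, edgeR adjusted p = 0.0408). The untreated libraries held 113 and 119 CPM there, so the 72 h libraries lay between those at 24 h and the untreated ones. A peak inside the collagen gene Col5a1 also rose, with 55.5 and 40.8 CPM at 72 h, against 17.1 and 27.3 CPM at 24 h (1.11).

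The mesenchymal falls were near Thy1 and Col6a2. The peak near Thy1, a surface glycoprotein gene of fibroblasts, held 37.0 and 22.0 CPM at 72 h, against 49.5 and 76.4 CPM at 24 h (-1.07). That near Col6a2 held 0 and 3.14 CPM at 72 h, against 11.9 and 15.0 CPM at 24 h, so the size of its fall is uncertain. Once location classes were scaled apart Vim did not pass (adjusted p = 0.304), nor did it without any 1 of the 4 libraries (adjusted p up to 0.320), and the peak at the end of Snai1, a repressor of E-cadherin, passed as lower (-0.74, 0.0415). In the common scaling that Snai1 peak held 76.3 and 78.4 CPM at 72 h, against 104 and 102 CPM at 24 h (-0.42, adjusted p = 0.257).

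The genes of ZEB1 itself and its relatives gave no call. The peak inside Zeb1 held 60.1 and 53.3 CPM at 72 h, against 71.6 and 80.5 CPM at 24 h (-0.42, SE 0.255, edgeR adjusted p = 0.338). The peak near Zeb2, its paralogue, held 90.1 and 43.9 CPM at 72 h, against 69.9 and 66.8 CPM at 24 h (0.05, SE 0.256). Snai2, another E-box repressor gene, held 62.4 and 56.5 CPM at 72 h, against 59.7 and 60.0 CPM at 24 h (0.00, SE 0.262). Cd44, the gene of a hyaluronan receptor, had 13 tested peaks and no call, and its strongest held 199 and 194 CPM at 72 h, against 227 and 214 CPM at 24 h (-0.16, SE 0.159). At the SEs of the Zeb1, Zeb2 and Snai2 peaks a change of the size seen at Krt8 could have been missed.

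Of 80 tested peaks near 26 genes of the TGF-beta pathway 3 rose and 3 fell, 3.75% each way beside 2.32% and 2.39% of all tested peaks, and 74 did not pass. The list's median was 0.04. Among the falls, a peak 43.6 kb from Tgfbr2, the gene of the type II receptor, held 32.4 and 53.3 CPM at 72 h, against 68.2 and 115 CPM at 24 h (-1.18, SE 0.277, edgeR adjusted p = 0.00558), and a neighbouring Tgfbr2 peak fell by 0.93. A peak inside Smad3, which carries the receptor's signal to the nucleus, held 41.6 and 84.7 CPM at 72 h, against 113 and 102 CPM at 24 h (-0.83). Among the rises, the boundary peak of Skil, a SMAD repressor gene, held 83.2 and 87.8 CPM at 72 h, against 40.9 and 46.4 CPM at 24 h (0.95, SE 0.257, adjusted p = 0.0179). That of its relative Ski held 27.7 and 37.6 CPM at 72 h, against 11.9 and 9.55 CPM at 24 h (1.57). Ltbp3, whose product holds latent TGF-beta in the matrix, rose by 0.59. The Skil and Ski peaks were at boundaries and the others were not, and with location classes scaled apart the first Tgfbr2 peak and Ltbp3 passed while Skil, Ski and Smad3 did not.

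Genes of Hippo-YAP and AP-1, factors that work with ZEB1 at enhancers, gave 5 rises (3.94%) and 7 falls (5.51%) among 127 tested peaks near 34 genes, beside 2.32% and 2.39% of all tested peaks, and 115 did not pass (median -0.05). A peak inside Tead1, the DNA-binding partner of YAP, held 48.5 and 40.8 CPM at 72 h, against 123 and 109 CPM at 24 h (chr7:112700089-112700455, log2 fold change -1.34, SE 0.248, edgeR adjusted p = 0.000324), and it stayed called without any 1 of the 4 libraries. Distal peaks of the YAP targets F3 (-2.14) and Ccn1 (-1.74), the Amotl2 peak above (-1.67), and a peak inside Wwtr1, the gene of TAZ (-1.58), fell with it. Among the rises were AP-1 genes, with the boundary peak of Junb at 41.6 and 43.9 CPM at 72 h, against 22.2 and 12.3 CPM at 24 h (1.34), a peak inside Jund (0.71) and the boundary peak of Fos (0.81). Sav1, a scaffold of the Hippo kinases, held 32.4 and 37.6 CPM at 72 h, against 11.9 and 12.3 CPM at 24 h (1.5), and the peak near Dusp6, a MAP kinase phosphatase gene, rose by 0.58. Scaling the location classes apart gave 5 rises and 3 falls in the list. The boundary peaks of Junb, Fos and Sav1 did not pass. Other Fos peaks, outside genes, passed as higher in that fit (0.97 and 0.83, adjusted p = 0.0327 and 0.0395), and the remaining rises were at Jund and Dusp6. The falls that passed were those of Tead1, Amotl2 and Wwtr1, while the F3 and Ccn1 peaks did not pass.

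The lists with the highest shares of rises were those of KLF factors with hormone receptors and of ZEB1 corepressors with chromatin regulators. Of 84 tested peaks near 35 genes of receptors and KLF factors 9 rose (10.7%, beside 2.32% of all tested peaks) and 3 fell, 7 of the 9 at boundaries, and the list's median was 0.05. Besides Klf16, the peak near Klf9 held 153 and 166 CPM at 72 h, against 81.9 and 84.6 CPM at 24 h (0.92, SE 0.192, edgeR adjusted p = 0.00152), and it stayed called without any 1 of the 4 libraries. The boundary peak of Klf13 held 169 and 144 CPM at 72 h, against 97.2 and 92.8 CPM at 24 h (0.74), and peaks of Klf5, Klf10 and Klf11 rose by 0.77, 0.96 and 0.73. The falls were at the growth factor receptor gene Egfr, where a peak inside the gene held 39.3 and 34.5 CPM at 72 h, against 80.1 and 90.0 CPM at 24 h (-1.20) and a second peak fell by 0.78, and near Klf6 (-1.04). Scaled apart by location class, the list gave 4 rises and 2 falls.

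Of 65 tested peaks near 28 genes of corepressors and chromatin regulators 6 rose, none fell and 59 did not pass. The rises were 9.23%, beside 2.32% of all tested peaks, and the list's median was 0.27. At boundaries lay 35.4% of the list's peaks and 4 of the 6 rises. Ctbp2, which encodes a corepressor that ZEB1 binds, had a boundary peak with 69.3 and 62.7 CPM at 72 h, against 20.5 and 30.0 CPM at 24 h (1.36, SE 0.323, edgeR adjusted p = 0.00606). The boundary peak of Ezh2, the methyltransferase gene of the polycomb complex, held 50.8 and 62.7 CPM at 72 h, against 29.0 and 20.5 CPM at 24 h (1.20). The histone deacetylase gene Hdac1 (1.06), the DNA demethylase gene Tet3 (1.55) and 2 peaks inside the histone demethylase gene Kdm6b (0.85 and 0.89) also rose. With location classes scaled apart 4 peaks passed, all higher, among them Ctbp2 (1.04, adjusted p = 0.0431) and both Kdm6b peaks but not Ezh2, Hdac1 or Tet3. In the SWI/SNF list 1 of 24 peaks rose (4.17%), that of Smarcc1, a core subunit (1.03), and the list's median was 0.46. Of this list's peaks 54.2% were at boundaries, and none passed with location classes scaled apart.

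The list of microtubule and mitosis genes holds the drug's own target. In it 1 of 74 peaks near 47 genes rose (1.35%) and 2 fell (2.70%), beside 2.32% and 2.39% of all tested peaks. The list's median was 0.16. Of its peaks 50% were at boundaries, and none of these was called. Their median was 0.20, beside 0.32 over all tested boundary peaks. The peak near Clasp1, which encodes a protein of growing microtubule ends, held 102 and 87.8 CPM at 72 h, against 49.5 and 62.8 CPM at 24 h (0.75, SE 0.238, edgeR adjusted p = 0.0460). The peak near Kif2c, a microtubule-depolymerising kinesin gene, held 53.2 and 43.9 CPM at 72 h, against 95.5 and 84.6 CPM at 24 h (-0.86). The Tubb6 peak held 0 and 9.41 CPM at 72 h, against 18.8 and 28.6 CPM at 24 h, which leaves the size of its fall uncertain.

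Cell cycle genes gave 2 rises (3.64%) and 1 fall (1.82%) among 55 peaks near 28 genes, beside 2.32% and 2.39% of all tested peaks. Of the list's peaks 41.8% were at boundaries, where 5.77% of all tested peaks rose. The rises were the Rb1 peak given above and that of E2f1, the transcription factor that the retinoblastoma protein binds, with 90.1 and 75.3 CPM at 72 h, against 37.5 and 32.7 CPM at 24 h (1.26, SE 0.273, edgeR adjusted p = 0.00235). The peak inside the kinase gene Cdk6 held 13.9 and 15.7 CPM at 72 h, against 47.7 and 43.7 CPM at 24 h (-1.62). Among p53 targets and cell death genes 4 of 82 peaks near 33 genes rose (4.88%), all at boundaries, and 2 fell (2.44%). Of this list's peaks 40.2% were at boundaries. The rises were at the apoptosis genes Casp9 (0.69) and Bax (1.06), the stress gene Sesn2 (0.85) and the DNA repair gene Xpc (1.03). The falls were near Bcl2, an inhibitor of apoptosis, with 46.2 and 28.2 CPM at 72 h, against 88.7 and 81.9 CPM at 24 h (-1.13), and near the death receptor gene Fas (-0.80). None of the 4 rises passed with location classes scaled apart.

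The remaining lists held few calls, to be read beside the 2.32% of all tested peaks that rose and the 2.39% that fell. Interferon and innate sensing genes gave 2 rises, at the boundary peaks of the feedback inhibitors Socs3 (0.64) and Nfkbia (0.86), and 2 falls, at Ifit2 (-1.49) and near Socs1 (-1.29), among 47 peaks (4.26% each way). Cytoskeleton and adhesion genes, with 224 peaks near 53 genes the best covered list, gave 2 rises, at Rhoc (1.17) and Rdx (1.73), and 2 falls, inside the integrin gene Itgb6 (-1.24) and at Ssh3 (-0.95), a share of 0.893% each way. Wnt genes gave 1 rise, at the kinase gene Gsk3b, with 240.4 and 223 CPM at 72 h, against 136 and 158 CPM at 24 h (0.65), and 1 fall, near Lrp5 (-1.07), among 55 peaks (1.82% each way). Ribosomal protein genes gave 2 rises among 40 (5%), and markers of other cell types gave 1 fall among 15 (6.67%), near Ptprc (-2.35). With location classes scaled apart no peak of the interferon or Wnt lists passed. The adjusted p in that fit was 0.256 for Gsk3b, 0.403 for Socs3 and 0.272 for Nfkbia. Rhoc did not pass either (0.188), while the peaks of Rdx, Itgb6, Ssh3, Ptprc and the ribosomal genes Rpl24 and Rps14 did. DESeq2 called no peak named for a list.

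Some genes carried several changed peaks. Of 33 genes with 2 or more called peaks, 22 had falls only, 4 had rises only and 7 had both. In all, 465 rises were assigned to 461 genes and 345 falls to 319 genes. The part of peak location in this split was not tested. Otud7b, a deubiquitinase gene, had 10 tested peaks and 4 calls, with a rise of 0.90 at its boundary beside 3 falls outside the gene, of 1.32, 0.97 and 0.55 on the log2 scale. Rgs12 paired the rise at its start (1.55) with a fall inside the gene (-1.53). All 3 called peaks of Calcb, a calcitonin-family gene, fell, and the rises-only genes were Elovl5, Foxo6, Kdm6b and Lmna, the lamin A gene.

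At called peaks the 48 h libraries, which entered the filter and the estimate of spread but not the contrast, mostly lay between the other times. Their mean fell between those at 24 and 72 h in 467 of the 492 rises and 476 of the 507 falls, with a median position 0.497 and 0.481 of the way from 24 to 72 h on the log2(CPM + 1) scale. Among the rises the median level was 32.5 CPM at 24 h, 49.2 at 48 h and 70.2 at 72 h, and among the falls 73.3, 51.8 and 33.5. Since the calls fix the ends at 24 and 72 h, these levels describe the called peaks and are not tested.

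Untreated cells were nearer to 24 h than to 72 h at most of the called peaks. At the called peaks the untreated mean lay between 24 and 72 h in 371 rises and 356 falls. It was nearer to 24 h in 334 rises and 313 falls, and nearer to 72 h in 158 and 194. The untreated median level was 39.4 CPM in the rises and 55.6 CPM in the falls. Over all tested boundary peaks the median level was 33.6 CPM in untreated cells and then 36.3, 39.8 and 45.6 CPM at 24, 48 and 72 h, whereas outside genes it was 36.6, 35.5, 34.4 and 31.5 CPM. Vim, Klf16 and Mex3c are cases in which 24 h was the lowest of the 4 groups, and Mreg, with 567 and 514 CPM in untreated cells, is one in which each eribulin library was lower than both untreated ones.

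**Figure D5:**
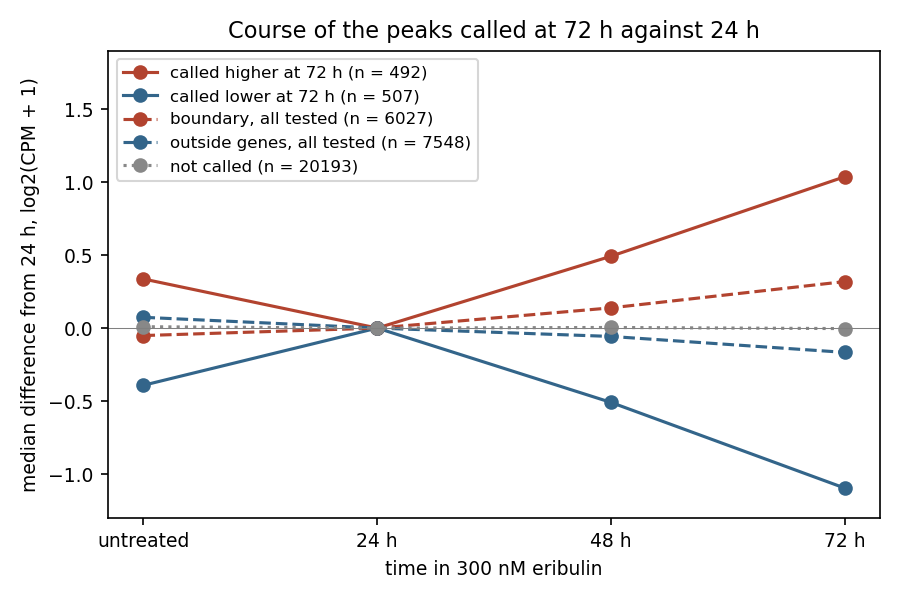
Median difference from 24 h on the log2(CPM + 1) scale for untreated cells and after 24, 48 and 72 h in 300 nM eribulin, for the 492 rises, the 507 falls, the uncalled peaks and all tested boundary and outside peaks. The called sets were chosen on 72 h against 24 h, so their ends at those times are fixed by the choice, and the 48 h medians lie near the middle (0.49 and -0.51).

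The authors' peak lists, called once for each group against IgG, give a description without replicates. The 72 h list held 12420 peaks and the 24 h list 15163, covering 4409 and 5228 kb, with a median fold over IgG of 6.82 and 7.43. Of the 72 h peaks 79.2% overlapped a 24 h peak by at least 1 base (95% Wilson interval 78.5 to 79.9), and of the 24 h peaks 64.96% overlapped a 72 h peak (64.2 to 65.7). The length of a list moves with depth, which was lower at 72 h.

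Calls and lists went together. Of the 492 rises 210 lay among the 2091 tested peaks of the 72 h list that the 24 h list lacks. A further 265 lay among the 9748 tested peaks of both lists, and 17 among the 4599 in neither. Of the 507 falls 274 lay among the 4754 tested peaks of the 24 h list that the 72 h list lacks. The other falls were 207 in both lists and 26 in neither. Over all 21192 tested peaks 2.32% rose and 2.39% fell. Among tested peaks found in the 72 h list alone of these lists 48.4% were boundary peaks, against 15.0% of those in the 24 h list alone. The boundary share was 35.2% among peaks in both lists and 18.9% among those in neither. The lists were made from the same libraries as the counts and are not independent of them.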

How the data were processed

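ZEB1 CUT&RUN was measured in 8 libraries of PB3 cells, with 1 IgG library. Among the tools listed in the submitters' processing notes, without their roles, order or settings, are MACS2 2.1.1, Bowtie2 2.2.6, cutadapt 2.4, featureCounts, bedtools 2.30.0, Picard, deepTools and bcl2fastq 2.20.0.422; the notes give the build GRCm38 (mm10). The authors deposited raw counts per consensus peak and library, with no scaling. The deposited peak lists give a caller score, a fold over the IgG library, the −log10 of q, and a summit position as another value. Per the peak names in the files, each list was made from replicate 1 against IgG, and the sources used here do not give the role of replicate 2.

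The 72 h minus 24 h contrast was fitted in R 4.3.3 with edgeR 4.0.16: filterByExpr by group, TMM, a robust quasi-likelihood fit with 1 mean for each of 4 groups (4 residual degrees of freedom) and an F-test, Benjamini-Hochberg adjusted over 21192 peaks. SE is that of the fitted log2 fold change. DESeq2 1.42.0, other filters, scalings, thinning to 326944 counts, summed pairs, a replicate block and leaving out libraries were alternatives. The fit was tested on simulated counts. Gene positions came from a RefSeq table without strand, and promoter windows of 300 bases from RefSeq GRCm38.p6, which has no window for some genes. In all 18292 peaks had a gene within 50 kb. Of 671 listed genes 670 matched the table. Named peaks were the 14 largest changes in each direction whose mean CPM reached the median of tested peaks and whose libraries at the 2 times did not overlap, up to 3 called peaks per list and direction with the smallest p, and the strongest peak of each of 10 genes listed by name; other called members of a list are named after their values were seen. Lists and members were chosen with earlier results of these data known. Intervals are 95% Wilson and cover counting error only.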

Additional observations from a re-analysis of the deposited data

How the results depend on the processing

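The count of called peaks (999, with 492 higher and 507 lower) stayed within 1.5 times of its value under the other filters on low counts, RLE factors, library totals alone, loess offsets and the 4 libraries alone. With thinned libraries 357 peaks were called, 148 higher (95 at boundaries) and 209 lower (201 away from boundaries). With summed pairs, where the spread comes from the 48 h pair alone, 644 were called, 303 higher (216 at boundaries). With DESeq2 5 were called, 2 higher, both at boundaries, and 3 lower, all elsewhere. With location classes scaled apart, added after seeing the data, 547 were called, 260 higher (43 at boundaries) and 287 lower (181 elsewhere). Leaving out 1 library at a time gave 208 to 1135 calls, 100 to 576 higher (69 to 398 at boundaries) and 108 to 613 lower (105 to 593 elsewhere). The causes were not tested, beyond the smaller number of counts in thinned and left-out fits. Replicate numbers did not pair the samples: differences between replicates correlated across groups at -0.0302 to 0.00100, and the replicate block gave 951 calls, 462 higher and 489 lower. The overlap of the 72 h list with the 24 h list was 77.3% and that of the 24 h list with the 72 h list 63.3% when the overlap had to cover 50% of the shorter peak, and 78.4% and 59.4% at a −log10 q of at least 5. The boundary share difference of 6.17 points was 5.12 without called peaks and 5.41 in peaks of both lists. No alternative turned the sign of a called named peak; the uncalled peaks of Snai2, Zeb2 and Cd44 changed sign under some, Zeb2 without 72 h replicate 1 among them. Of the values of the 90 named peaks under alternatives 1316 kept their side of the threshold, 364 no longer passed and 1 came to pass. The median count per peak ran from 10 to 24 over the 8 libraries, which limits single peaks.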
